A study of Mus musculus with 2 samples.

Results

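The transcripts of 10 genes of the transforming growth factor beta (TGF-beta) pathway were followed in cultures of mouse T helper 17 (Th17) cells. The genes are the ligands Tgfb1 and Tgfb3, the receptors Tgfbr1, Tgfbr2 and Tgfbr3, the receptor SMADs Smad2 and Smad3, the inhibitory Smad7, and the corepressors Ski and Skil. They were chosen by symbol and matched through Entrez identifiers, and all 10 were found among the 13030 named genes of the authors' expression table. One library came from wild-type CD4+ T cells (C57BL/6 strain, 6 to 8 weeks of age) kept for 48 h in Th17-polarizing culture with antigen presenting cells (APCs) that carried an OX40L transgene. The other came from T cells of the same strain, age and genotype, kept equally long in the same kind of culture with wild-type APCs. They are called the OX40L-TG-APC library and the WT-APC library. OX40L is the ligand of OX40, a costimulatory receptor of activated T cells. Which promoter drove the transgene and which cells served as APCs is not given in the sources used here.

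TGF-beta is secreted as a latent complex and acts only once it is released from its propeptide. It then joins the type II receptor TGFBR2 with the type I receptor TGFBR1, which phosphorylates SMAD2 and SMAD3, and these enter the nucleus with SMAD4. SMAD7 blocks the receptor, and SKI and SKIL (also called SnoN) hold SMAD target genes silent until they are degraded. In T cells TGF-beta together with IL-6 starts the Th17 programme, together with IL-4 it favours IL-9 production, and SKI with SMAD4 restrains the Th17 programme in the mouse.

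Each condition had 1 library, so no test between conditions was possible and every value compares these libraries only. Levels are FPKM, fragments per kilobase of transcript scaled to library size. Depth was read from the steps of the lowest values, at about 28300000 fragments for the OX40L-TG-APC library and 24700000 for the WT-APC library. Ratios and levels carry 95% exact intervals from the estimated fragments (Clopper-Pearson for ratios, Poisson for levels), which cover counting error and not the variation between cultures. Of the FPKM values above 0, 41.0% in the OX40L-TG-APC library and 42.3% in the WT-APC library are written with more than 6 digits, of which 99.9% with OX40L-TG APCs and 99.0% with WT APCs end in 5, as the mean of a pair of values would. What was averaged is not given in the sources used here, and the fragment numbers behind the intervals take each value as that of 1 library. For 397 genes that the authors also list in a second table, the FPKM there was the same multiple of the value used here, within 0.1%, for 390 genes in the OX40L-TG-APC library and 375 in the WT-APC library. T cell genes were abundant in both libraries, with Cd4 at 246 FPKM in the OX40L-TG-APC library against 201 FPKM in the WT-APC library, and Cd3e at 86.5 FPKM with OX40L-TG APCs against 98.0 FPKM with WT APCs. Tnfsf4, the OX40L gene, stood at 2.14 FPKM in the OX40L-TG-APC library against 2.70 FPKM in the WT-APC library.

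A change is the log2 of the OX40L-TG-APC over the WT-APC value, each FPKM plus 1, and a gene is called higher or lower when the change reaches 2-fold. Genes that reached 1 FPKM in one of the libraries numbered 10627, and of these 2.26% were higher and 1.33% lower by that rule. Of these calls 63.0% were higher, against 52.6% with the median ratio of well-expressed genes set to 1 and 47.3% with equal totals. The median change of these genes was 0.11 and fell by 0.11 and 0.16 under these scalings, so some changes are also set against it. All 10 pathway genes passed the filter in both libraries, 1 was at least 2-fold higher and none was at least 2-fold lower. With a call at 1.5-fold, which 7.2% of all genes passed upward and 3.38% downward, the members' counts were again 1 and 0. Their median change was -0.12, and 7 lay below the median of all genes.

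Tgfb3 (Entrez 21809, chromosome 12, 86056743 to 86079041) encodes a ligand that developing Th17 cells are known to make. It stood at 8.04 FPKM in the OX40L-TG-APC library (7.48 to 8.62) and 2.34 FPKM in the WT-APC library (2.02 to 2.69). The plain ratio was 3.43 (2.94 to 4.05), from about 769 fragments with OX40L-TG APCs and 195 with WT APCs. Its change of 1.44 had rank 88 from the highest among the 10627 genes, and the level went with it: 33.7% of genes stood at or below Tgfb3 in the OX40L-TG-APC library and 12.3% in the WT-APC library. The authors' deposited table lists 398 genes from the same libraries. In it the smallest absolute log2 ratio is 1.00 and the largest p-value is 0.04985. Members short of 2-fold could therefore not appear there, and its Tgfb3 entry is not a separate measurement. Tgfb3 was the single pathway member present, at a log2 ratio of 1.81. The p-value in the authors' deposited table, 0.00145, sets one library against the other. With a pseudocount of 5 in place of 1 its change was 0.83, short of 2-fold.

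Tgfb1 (Entrez 21803, chromosome 7, 25687002 to 25704996), the ligand most immune cells produce, was the more abundant ligand in both libraries. Its FPKM was 24.9 in the OX40L-TG-APC library (23.7 to 26.2) and 20.3 in the WT-APC library (19.1 to 21.5), a ratio of 1.23 (1.14 to 1.33). Tgfb1 exceeded Tgfb3 by 3.10 times in the OX40L-TG-APC library (2.84 to 3.38), against 8.66 times in the WT-APC library (7.44 to 10.2). Such a ratio between genes of a library does not depend on how the libraries are scaled. The third ligand gene, Tgfb2, was near 0, at 0.0364 FPKM in the OX40L-TG-APC library and 0.0333 FPKM in the WT-APC library.

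**Figure D1:**
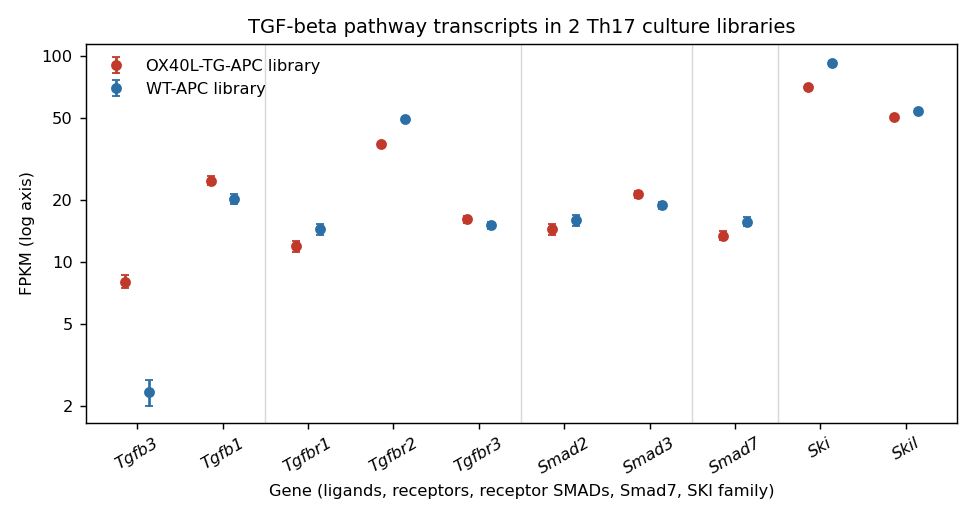
FPKM (log axis) of the 10 genes in the OX40L-TG-APC library (red, left of each pair) and the WT-APC library (blue, right). Bars are 95% exact Poisson intervals of the counting error. Tgfb3 shows the widest gap, at 8.04 FPKM in the OX40L-TG-APC library and 2.34 FPKM in the WT-APC library, while Ski has the highest level in both, at 70.4 FPKM in the OX40L-TG-APC library against 92.6 FPKM in the WT-APC library.

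The promoter regions of Tgfb1, Tgfbr2 and Ski are printed because they belong to the more abundant ligand and to the receptor and corepressor with the lowest changes of the list. They come from RefSeq (build GRCm38.p6), which gave promoters for 5 of the 10 genes, and run from 250 bases before to 50 after the start of the gene, 5′ to 3′ on its strand. Capitals mark GGGCGG on either strand, the core letters of a GC box, and CAGAC on either strand, a SMAD-binding element.
Tgfb1, chr7:25686752-25687051, plus strand: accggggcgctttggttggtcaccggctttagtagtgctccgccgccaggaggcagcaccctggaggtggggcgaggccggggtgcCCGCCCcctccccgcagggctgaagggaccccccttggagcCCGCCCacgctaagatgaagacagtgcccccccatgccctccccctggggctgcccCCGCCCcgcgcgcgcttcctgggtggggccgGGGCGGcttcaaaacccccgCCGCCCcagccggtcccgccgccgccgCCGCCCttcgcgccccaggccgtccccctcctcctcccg
Tgfbr2, chr9:116175314-116175613, minus strand: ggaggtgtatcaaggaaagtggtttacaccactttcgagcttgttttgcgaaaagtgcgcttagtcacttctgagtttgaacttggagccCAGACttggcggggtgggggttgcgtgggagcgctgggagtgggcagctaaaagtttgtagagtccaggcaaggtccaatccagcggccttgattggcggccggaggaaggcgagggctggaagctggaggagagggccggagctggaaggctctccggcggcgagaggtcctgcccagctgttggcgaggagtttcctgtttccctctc
Ski, chr4:155222486-155222785, minus strand: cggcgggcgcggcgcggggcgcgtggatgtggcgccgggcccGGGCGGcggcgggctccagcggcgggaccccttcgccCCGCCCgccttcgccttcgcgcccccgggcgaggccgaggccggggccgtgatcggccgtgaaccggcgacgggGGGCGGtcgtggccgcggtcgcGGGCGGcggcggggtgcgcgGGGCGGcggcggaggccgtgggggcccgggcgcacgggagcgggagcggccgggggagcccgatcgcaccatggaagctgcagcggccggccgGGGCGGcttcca
Tgfb1 and Ski held 6 GGGCGG matches each and no CAGAC, and Tgfbr2 held 1 CAGAC and no GGGCGG. Of all 32851 promoters of this length, 35.7% held at least 1 GGGCGG and 49.6% at least 1 CAGAC, so holding either is common. How many promoters hold 6 GGGCGG matches was not counted. The GC content was 77.0% for Tgfb1, 59.0% for Tgfbr2 and 85.3% for Ski, against a median of 52.7% over all promoters.

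The signalling receptors were both lower in the OX40L-TG-APC library, by less than 2-fold. Tgfbr2 (Entrez 21813, chromosome 9, 116087695 to 116175363), which binds the ligand first, stood at 37.4 FPKM in the OX40L-TG-APC library against 49.5 FPKM in the WT-APC library. The ratio was 0.756 (0.730 to 0.782), and the change of -0.39 lay 0.51 below the median of all genes, at rank 596 from the lowest. Tgfbr1 (Entrez 21812, chromosome 4, 47353305 to 47414924), the kinase that marks the SMADs, stood at 11.9 FPKM with OX40L-TG APCs against 14.4 FPKM with WT APCs, a ratio of 0.826 (0.756 to 0.903). The FPKM ratio of Tgfbr2 to Tgfbr1 was 3.14 in the OX40L-TG-APC library (2.93 to 3.36) and 3.43 in the WT-APC library (3.21 to 3.67), with overlapping intervals. B cell markers also summed to a lower level in the OX40L-TG-APC library, at 31.9 FPKM with OX40L-TG APCs against 68.9 FPKM with WT APCs, and their part in the receptor levels was not tested.

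Tgfbr3 (Entrez 21814, chromosome 5, 107106570 to 107289595) encodes betaglycan, a co-receptor that presents ligand and has no kinase of its own. It stood at 16.1 FPKM in the OX40L-TG-APC library and 15.1 FPKM in the WT-APC library, a ratio of 1.07 (1.01 to 1.13). Its change of 0.09 was close to the median of all genes and turned to -0.02 with the median ratio of well-expressed genes set to 1, and to -0.08 with equal totals. Relative to Tgfbr2 it was higher in the OX40L-TG-APC library, at 0.431 times Tgfbr2 (0.412 to 0.450) against 0.305 times in the WT-APC library (0.290 to 0.319).

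**Figure D2:**
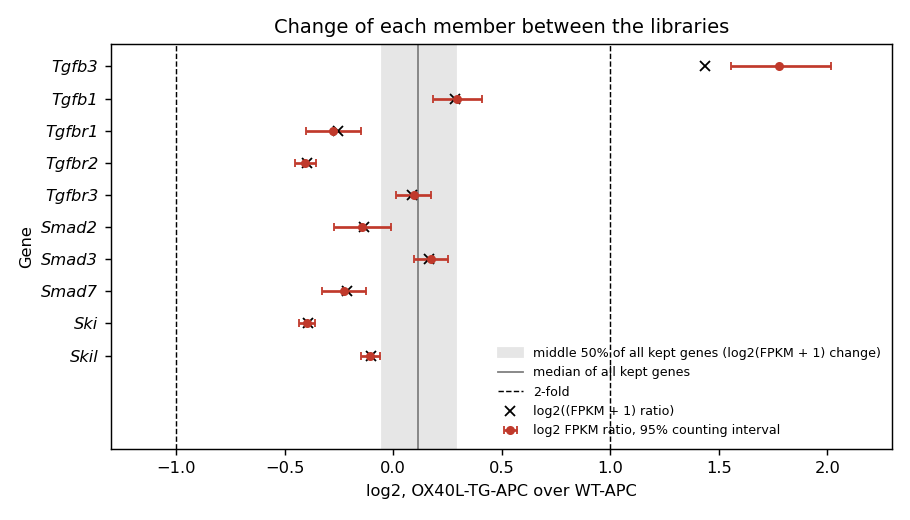
Change of each gene as the log2 of OX40L-TG-APC over WT-APC. Red points are plain FPKM ratios with 95% exact Clopper-Pearson intervals of the counting error, crosses are changes with 1 added to each FPKM, the grey band is the middle 50% of all 10627 genes, the grey line is their median of 0.11, and dashed lines mark 2-fold. Tgfb3 alone lies beyond 2-fold, and Tgfbr2 and Ski lie farthest to the left at -0.39.

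The receptor SMADs differed little. Smad3 was slightly higher, though not with equal totals, and Smad2 slightly lower. Smad3 (Entrez 17127, chromosome 9, 63646767 to 63757994) stood at 21.3 FPKM in the OX40L-TG-APC library against 18.9 FPKM in the WT-APC library, a ratio of 1.13 (1.07 to 1.19). Smad2 (Entrez 17126, chromosome 18, 76241701 to 76311747) stood at 14.4 FPKM in the OX40L-TG-APC library against 15.9 FPKM in the WT-APC library, for a ratio of 0.907 (0.829 to 0.992). The direction of Smad3 depended on the scaling, with a change of 0.17 as deposited and of -0.0039 with equal totals, and the interval of Smad2 took in 1 when its shortest transcript was used (0.812 to 1.01). What does not depend on scaling is the ratio of Smad3 to Smad2, 1.48 in the OX40L-TG-APC library (1.37 to 1.59) and 1.19 in the WT-APC library (1.10 to 1.28).

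The negative regulators among the 10 genes, Ski, Skil and Smad7, were all lower, by less than 2-fold. Ski (Entrez 20481, chromosome 4, 155151585 to 155222535) was the most abundant of the 10 genes, at 70.4 FPKM in the OX40L-TG-APC library (69.1 to 71.7) against 92.6 FPKM in the WT-APC library (91.0 to 94.3). Its ratio of 0.760 (0.741 to 0.780) was close to that of Tgfbr2. Skil (Entrez 20482, chromosome 3, 31095058 to 31122923), a relative of Ski and itself a TGF-beta target, stood at 50.4 FPKM with OX40L-TG APCs against 54.1 FPKM with WT APCs, a ratio of 0.930 (0.903 to 0.958). Ski was 1.40 times Skil in the OX40L-TG-APC library (1.36 to 1.44) and 1.71 times Skil in the WT-APC library (1.67 to 1.76).

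Smad7 (Entrez 17131, chromosome 18, 75343287 to 75697696), the feedback inhibitor that TGF-beta induces, stood at 13.4 FPKM in the OX40L-TG-APC library and 15.7 FPKM in the WT-APC library. The ratio was 0.855 (0.798 to 0.916). Its printed locus also spans Ctif, another protein-coding gene, which stood at 1.01 FPKM in the OX40L-TG-APC library and 0.659 FPKM in the WT-APC library. Set against Smad3, Ski was 3.30 times as abundant in the OX40L-TG-APC library (3.17 to 3.44) and 4.91 times in the WT-APC library (4.70 to 5.13). Smad7 was 0.630 times Smad3 in the OX40L-TG-APC library (0.592 to 0.669) and 0.831 times in the WT-APC library (0.781 to 0.886). Both inhibitors were thus lower relative to Smad3, which was itself higher as deposited, at a ratio of 1.13 between the libraries. Smad2 (ratio 0.907), Tgfbr1 (0.826) and Tgfbr2 (0.756) were lower, as Ski (0.760) and Smad7 (0.855) were, so the result holds for Smad3 as the reference gene only.

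**Figure D3:**
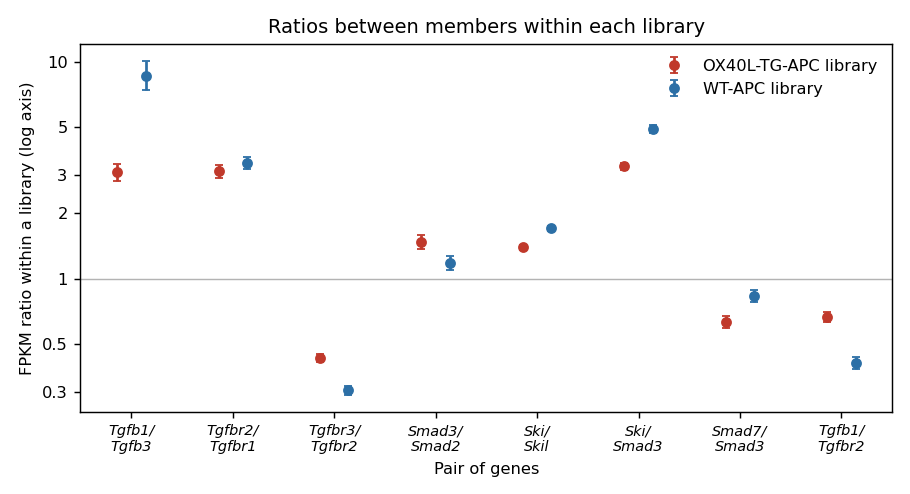
FPKM ratio (log axis) of pairs of members within the OX40L-TG-APC library (red, left) and the WT-APC library (blue, right), with 95% exact Clopper-Pearson intervals of the counting error. The largest gap is Tgfb1 over Tgfb3, 3.10 with OX40L-TG APCs and 8.66 with WT APCs, and the intervals overlap for Tgfbr2 over Tgfbr1 but for no other pair shown.

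In order of level, both libraries began with Ski, Skil, Tgfbr2, Tgfb1 and Smad3 and ended with Tgfbr1 and Tgfb3. In the OX40L-TG-APC library Tgfbr3, Smad2 and Smad7 lay between them, and the intervals of Smad2 and Smad7 overlapped. In the WT-APC library the order between was Smad2, Smad7 and Tgfbr3, where each overlapped its neighbour down to Tgfbr1, and Tgfb1 also overlapped Smad3. The ligand Tgfb1 was 0.665 times its receptor Tgfbr2 in the OX40L-TG-APC library (0.628 to 0.703) and 0.409 times in the WT-APC library (0.383 to 0.436). Across all 10627 genes the middle 50% of the changes ran from -0.05 to 0.29. By that measure 6 members lay below it (Tgfbr2, Ski, Tgfbr1, Smad7, Smad2 and Skil), 1 lay above it (Tgfb3) and 3 lay inside. The genes most like Tgfb3 in both libraries, by Euclidean distance on log2(FPKM + 1) over these 2 libraries, were Pygl (distance 0.104), Bcar1 (0.115) and Smtnl2 (0.154).

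The authors' table also lists features without an Entrez identifier that carry the same printed locus as a named gene. At the loci of 5 members there were 8 such features, and all 8 were lower in the OX40L-TG-APC library, with ratios of 0.116 to 0.907. Over all 4593 such features above 0 in both libraries, 71.2% were lower, with a median ratio of 0.810. The largest was at Ski, at 13.1 FPKM in the OX40L-TG-APC library and 23.95 FPKM in the WT-APC library. Adding these features to their genes gave changes of -0.47 for Ski, -0.40 for Smad7, -0.30 for Tgfbr1, -0.27 for Smad2 and 0.07 for Tgfbr3.

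Beyond the members, 98 other pathway genes were listed by role, of which 83 were in the table and 65 reached 1 FPKM in either library. Of these, 6 (9.23%) were at least 2-fold higher and 3 (4.62%) at least 2-fold lower, against 2.26% higher and 1.33% lower of all 10627 genes, in lists chosen with earlier results of these data known. Their median change was 0.11, as for all genes, and the genes past 2-fold were all receptors or target genes.

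Among 6 kept of 11 listed other receptor genes, Acvrl1 was at least 2-fold higher and Acvr2a at least 2-fold lower, and the list median was 0.33. Acvrl1 (chromosome 15, 101128522 to 101145336) encodes ALK1, a type I receptor best known from endothelium that signals to SMAD1 and SMAD5. It stood at 33.2 FPKM in the OX40L-TG-APC library and 10.5 FPKM in the WT-APC library, a ratio of 3.18 (2.93 to 3.46), and the log2 ratio of Acvrl1 in the authors' deposited table was 1.70 (p-value 5e-05). With these values Acvrl1 was above Tgfbr1 in the OX40L-TG-APC library and below it in the WT-APC library. Acvr2a, a type II receptor for activins, stood at 1.37 FPKM with OX40L-TG APCs against 4.28 FPKM with WT APCs, a ratio of 0.320 (0.272 to 0.373), at a printed locus that also spans the coding gene Orc4. With a pseudocount of 5 Acvr2a was short of 2-fold, and the authors' deposited table does not list it.

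The other SMAD genes, 3 kept of 5 listed, held none at 2-fold and had a median of 0.21. Smad4, the common partner of SMAD2 and SMAD3, stood at 24.7 FPKM in the OX40L-TG-APC library and 20.2 FPKM in the WT-APC library, and Smad5, a SMAD of the BMP branch, at 6.90 FPKM with OX40L-TG APCs against 8.00 FPKM with WT APCs. None of 5 kept genes of ligand latency and activation, of 14 listed, reached 2-fold (median 0.23). Furin, the protease that cleaves the TGF-beta precursor, had the lowest change and the highest level of them, at 138 FPKM in the OX40L-TG-APC library and 197 FPKM in the WT-APC library, 1.43 times lower (1.40 to 1.46). Mmp14, a membrane protease able to release latent TGF-beta, had the highest change of them, at 3.53 FPKM with OX40L-TG APCs against 2.20 FPKM with WT APCs.

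Regulators of receptors and SMADs, 19 kept of 21 listed, held none at 2-fold and had a median of 0.10. The ubiquitin ligase gene Wwp1 came nearest, at 11.5 FPKM in the OX40L-TG-APC library and 22.7 FPKM in the WT-APC library, with a change of -0.92 that passed 2-fold when the libraries were rescaled. Pmepa1, a target gene whose product restrains SMAD activation, had the highest change of them, at 17.6 FPKM with OX40L-TG APCs against 13.95 FPKM with WT APCs, and the receptor-associated Strap was the most abundant at 79.9 FPKM with OX40L-TG APCs against 67.4 FPKM with WT APCs. Nuclear cofactors of SMADs, 14 kept of 16, also held none and had a median of -0.11. In that list the T cell factor gene Runx3 had the highest change, at 23.97 FPKM in the OX40L-TG-APC library and 15.9 FPKM in the WT-APC library, Runx2 the lowest change, at 0.961 FPKM with OX40L-TG APCs against 2.08 FPKM with WT APCs, and Snw1 the highest level, at 63.9 FPKM with OX40L-TG APCs against 61.2 FPKM with WT APCs. The 5 genes of the TAK1 branch, a SMAD-independent route from the receptor, held none at 2-fold (median 0.14), with Traf6 at 42.5 FPKM in the OX40L-TG-APC library and 28.0 FPKM in the WT-APC library and Tab3 at 3.27 FPKM with OX40L-TG APCs against 3.56 FPKM with WT APCs. Of 10 listed activin and BMP ligand genes only Gdf11 was kept, at 6.47 FPKM with OX40L-TG APCs against 5.62 FPKM with WT APCs.

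**Figure D4:**
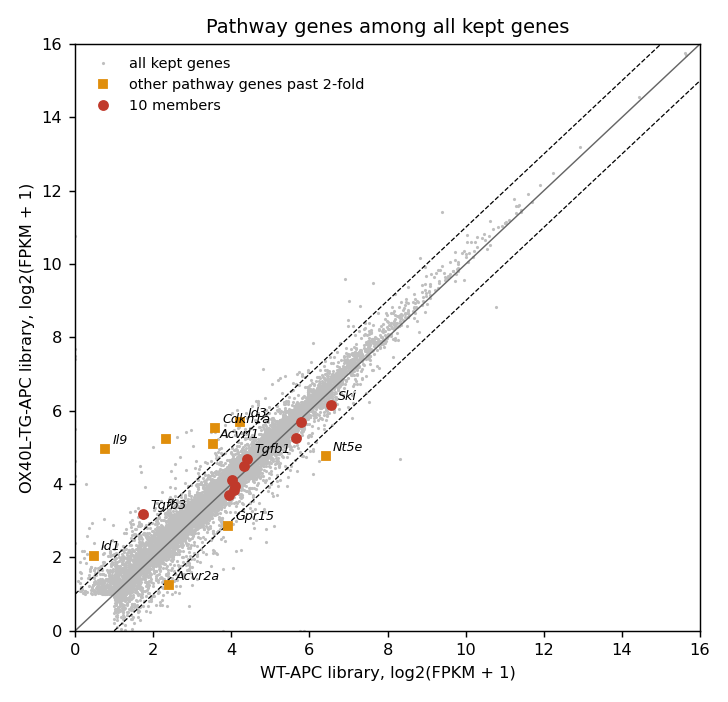
Level of every gene that reached 1 FPKM in one of the libraries as log2(FPKM + 1), WT-APC on the x axis and OX40L-TG-APC on the y axis. Red circles are the 10 members, orange squares the 9 other pathway genes past 2-fold, the solid line is equality and dashed lines are 2-fold. Tgfb3 lies above the upper dashed line, and the other 9 members lie within the dashed lines.

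Genes known to be induced by TGF-beta in T cells or in other cells went both ways. Of 19 kept of 24 listed, 5 were at least 2-fold higher and 2 at least 2-fold lower. The median was -0.10, and the list includes Ski, Skil and Smad7. Cdkn1a, the gene of the cell cycle inhibitor p21, stood at 44.8 FPKM with OX40L-TG APCs against 11.1 FPKM with WT APCs, a ratio of 4.05 (3.62 to 4.53). Id3 and Id1, inhibitors of E protein transcription factors, were higher too. Id3 stood at 50.4 FPKM in the OX40L-TG-APC library and 17.7 FPKM in the WT-APC library. Id1 stood at 3.12 FPKM with OX40L-TG APCs against 0.394 FPKM with WT APCs, with about 9 fragments behind the lower value and a ratio of 7.91 (3.99 to 18.0). With a pseudocount of 5 the change of Id1 was 0.59, short of 2-fold, and the authors' deposited table does not list Id1.

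Il9 stood at 29.8 FPKM in the OX40L-TG-APC library and 0.706 FPKM in the WT-APC library. About 9 fragments lay behind the WT-APC value of Il9, and the ratio of 42.2 had a wide interval (22.9 to 96.5). The lower target genes were Nt5e and Gpr15. Nt5e encodes the surface enzyme CD73, and stood at 26.05 FPKM in the OX40L-TG-APC library and 84.7 FPKM in the WT-APC library, a ratio of 0.308 (0.295 to 0.321). Gpr15, a gut homing receptor gene, stood at 6.29 FPKM in the OX40L-TG-APC library against 14.2 FPKM in the WT-APC library (ratio 0.444, interval 0.384 to 0.512), and with a pseudocount of 5 it was short of 2-fold. The part of the B cell and myeloid markers, also lower with OX40L-TG APCs, in the target gene values was not tested. Junb, an AP-1 gene and the most abundant of the list, stood at 689.7 FPKM in the OX40L-TG-APC library and 474 FPKM in the WT-APC library.

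**Figure D5:**
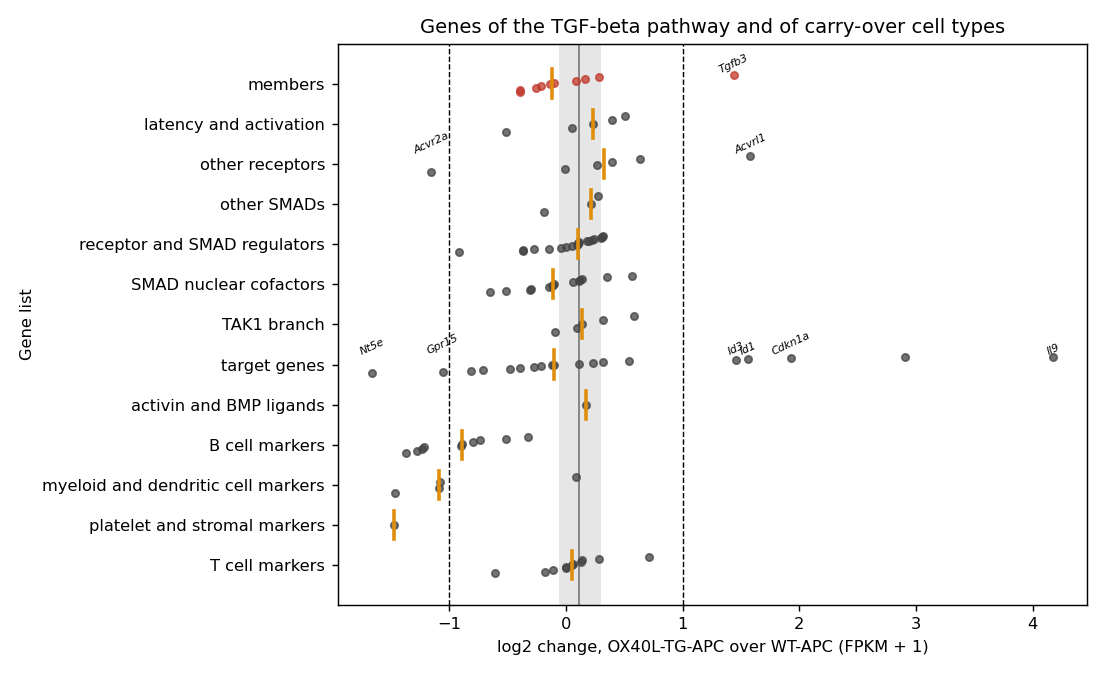
Change of every kept gene of each list as log2 of OX40L-TG-APC over WT-APC with 1 added to each FPKM. Points are genes, the orange bar is the list median, the grey band and line are the middle 50% and the median of all genes, and dashed lines mark 2-fold. Target genes spread from -1.66 (Nt5e) to 4.18 (Il9), while every kept B cell marker lies below the median of all genes.

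Markers of other cell types differed between the libraries. All 12 B cell markers were lower in the OX40L-TG-APC library, 4 of 10 kept by at least 2-fold. Their summed level was 31.9 FPKM in the OX40L-TG-APC library against 68.9 FPKM in the WT-APC library. The intervals of the ratios of Fcer2a (0.410 to 2.17) and Cr2 (0.364 to 1.04) took in 1, and neither gene was kept. Of all 13030 named genes, 4487 had a lower value in the OX40L-TG-APC library. Bank1 stood at 2.02 FPKM with OX40L-TG APCs against 6.81 FPKM with WT APCs, and Cd79a at 2.20 FPKM with OX40L-TG APCs against 6.52 FPKM with WT APCs. Of 15 myeloid and dendritic cell markers 13 were lower, 3 of 4 kept by at least 2-fold, with a summed level of 7.67 FPKM in the OX40L-TG-APC library against 16.7 FPKM in the WT-APC library. Lyz2 stood at 1.01 FPKM with OX40L-TG APCs against 4.55 FPKM with WT APCs, while Clec9a and Siglech were at or near 0 in both libraries. Clec9a was listed at 0 in the OX40L-TG-APC library and at 0.0249 FPKM, about 1 fragment, in the WT-APC library. Siglech was listed at 0 in the OX40L-TG-APC library and at 0.0511 FPKM, about 3 fragments, in the WT-APC library. The platelet genes Pf4, Ppbp and Gp9 were listed at 0 in both libraries. Of the 8 platelet and stromal markers found 4 were lower, and only Pecam1 was kept, at 7.55 FPKM with OX40L-TG APCs against 22.7 FPKM with WT APCs. The platelet gene Itga2b, too low to be kept, was higher, at 0.253 FPKM with OX40L-TG APCs against 0.0813 FPKM with WT APCs.

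T cell markers summed to 2711 FPKM in the OX40L-TG-APC library and 2538 FPKM in the WT-APC library, and none of 11 kept genes reached 2-fold. In that list Cd2 had the highest change and the highest level, at 407 FPKM with OX40L-TG APCs against 248 FPKM with WT APCs, and Cd28 the lowest change, at 142 FPKM with OX40L-TG APCs against 217 FPKM with WT APCs. The part of the B cell and myeloid markers in the levels of the pathway genes was not tested, and fewer cells of a type cannot be told apart from less RNA per cell.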

How the data were processed

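Per the labels' protocols, total RNA was taken from 5000000 cultured cells and 1 µg went into a TruSeq library. Reads were aligned with TopHat2 and values made with Cuffdiff against mm9, as the submitters' processing notes state. Tool versions, strand handling and gene models are not given in the sources used here. The authors deposited FPKM per gene for both libraries, and a second table with FPKM, the log2 ratio and a p-value for 398 genes, per the file headers. Its WT-APC FPKM differ from the full table by a median factor of 0.976, and the full table is used unless the other is named.

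Names came from RefSeq (GRCm38.p6), with 13030 of 13056 Entrez identifiers matched. Printed loci overlapped the GRCm38 gene for 99.7%, although the notes name mm9, and are given as printed with starts counted from 1. Genes whose larger FPKM was under 1 were left out, 1 was added before log2, and a call needs 2-fold. Depth was estimated from 416 genes with 1 curated transcript of at least 1500 bases and values under 0.3 FPKM. Of their ratios 61.3% were whole-number fractions within 0.2% at a step ratio of 0.873, against 2.40% at a shifted ratio. Fragments per gene used the median length of GENCODE M21 transcripts matched to RefSeq. The procedure was tested on simulated counts, drawn for each library without averaging. That test does not cover values that are the mean of a pair. With 1 library per condition there is no replicate, SD or p-value. The members and gene lists were chosen with earlier results of these data known. Named genes are the members and, in each list, those past 2-fold, the highest and lowest change and the highest level, and some genes that this rule names are not reported here. No reason for any difference was tested. Python 3.11.15, pandas 2.3.3 and scipy 1.17.1 were used.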

Additional observations from a re-analysis of the deposited data

How the results depend on the processing

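No paired analysis was possible because each condition had 1 library. Counts past 2-fold moved by over 1.5 times as follows. With a pseudocount of 5 the members held 0 higher genes, the other receptors 0 lower, the target genes 1 lower, the B cell and the myeloid markers 0 lower each, and all genes 101 higher and 39 lower. With a pseudocount of 0.1 the SMAD cofactors held 2 lower, and all genes 404 higher and 250 lower, against 240 and 141 as reported. The regulators held 1 lower gene, Wwp1, with the median ratio set to 1 and also with equal totals. With a call at 1.5-fold there were 2 higher other receptors, 1 lower regulator, 1 lower cofactor, 4 lower target genes, 8 lower B cell markers, 1 higher and 1 lower T cell marker, and 765 higher (7.2%) and 359 lower (3.38%) of all genes, while the members held 1 higher and 0 lower. Without genes whose printed locus spans another gene the other receptors held 0 lower and the myeloid markers 1 lower. The other 171 of these counts stayed within 1.5 times.

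Setting the median ratio to 1 shifted the median of all genes by -0.11, and equal totals shifted it by -0.16. Over all settings Tgfb3 ran from 0.83 to 1.74, Tgfb1 from 0.11 to 0.30, Tgfbr2 from -0.57 to -0.36 and Ski from -0.57 to -0.37. In 8 members the sign was the same in all settings, and in 2, Smad3 and Tgfbr3, it turned. Adding features of the same locus was chosen after seeing the data. About 195 fragments limit the WT-APC value of Tgfb3.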
